A study of Mus musculus with 40 samples.

Results

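The 10 genes described are commonly used to mark macrophages: Csf1r, Cd68, Marco, Mrc1, Siglec1, C1qa, C1qb, C1qc, Cd163 and Trem2. They were chosen by symbol, 10 of the 37310 genes in the table, and each was matched to its Ensembl identifier. Expression was measured by RNA sequencing in mice treated on the skin with N-nitrosotris-(2-chloroethyl)urea (NTCU), a carcinogen that gives rise to squamous lesions of the lung, or with the acetone vehicle. Of 40 samples collected, the 25 whose quality label is TRUE were used. 13 were cells taken by laser-capture microdissection (LCM), a method that cuts chosen cells out of a tissue section, and 12 were whole lung sections, for which the grade is the worst histology seen.

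All animals were female mice of the inbred strains SWR/J (written SWJ in the labels, n = 17) or A/J (n = 8) with no engineered allele named in the labels. The normal group (n = 7) received vehicle only, and held 3 LCM samples (1 SWR/J and 2 A/J) and 4 whole lung samples (3 SWR/J and 1 A/J). The mild dysplasia group (n = 5) was of SWR/J mice only, at a total dose of 15 umol NTCU, with 3 LCM and 2 whole lung samples. The high-grade group (n = 13) joined moderate to severe dysplasia (n = 9), severe dysplasia (n = 2), carcinoma in situ (CIS, n = 1) and squamous cell carcinoma (SCC tumor, n = 1), at 25, 30 or 50 umol in the SWR/J mice and 14 or 20 umol in the A/J mice, with 7 LCM and 6 whole lung samples. Dose and grade therefore cannot be told apart. The labels do not say which samples share an animal, and p-values measure the spread between these samples. For 2 of the 25 samples the histology in the description (mild for normal replicate 10, normal for mild replicate 5) differs from the grade label, which was used here.

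Macrophages are resident phagocytes of every tissue, and the lung holds at least a pair of populations. Alveolar macrophages live in the air spaces, depend on CSF2 (GM-CSF) and carry the scavenger receptor Marco, and tissue macrophages of the interstitium, airways and vessels depend mainly on CSF1 acting on Csf1r and make the complement component C1q. Siglec1 and Marco are also carried by macrophages of lymph node and spleen. In bulk samples, fewer cells of a type and less RNA per cell cannot be told apart.

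Total expected counts ranged from 2667387 to 16534728 per sample (median 9075416), and the median transcript integrity number (TIN, a score of RNA quality) from 21.7 to 75.1. No pair of samples was identical. The most alike pair (r = 0.99 across genes) was moderate to severe replicate 8, an LCM sample, and moderate to severe replicate 14, a whole lung sample, both A/J. The whole lung label was checked against 12 alveolar epithelial markers, whose summed level (log2 of summed CPM) was 11 or more in 9 of the 12 whole lung samples. It was 7.92 in normal replicate 6, 10.5 in normal replicate 8 and 10.2 in severe replicate 4. These 3 samples had a summed level of T and B cell markers of 12.2, 11.6 and 10.6, the highest, the second and the fifth among whole lung samples, against 4.73 to 11.6 in the other 9. Whether these sections hold tissue other than lung was not tested, and this bears on their Marco and Siglec1 levels. The 3 calls among the 10 genes, and the other fitted values where stated, are also given without them.

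Levels are log2 CPM (counts scaled to library size, with TMM factors), and between genes they are compared per kilobase of exon (log2 RPKM). Per length, the 3 C1q genes led. The mean log2 RPKM over the 25 samples was 6.57 ± 0.66 (SD) for C1qa, 5.95 ± 0.72 for C1qb and 5.45 ± 0.73 for C1qc. Cd68, a lysosomal glycoprotein of phagocytes, followed at 4.83 ± 0.59, and Csf1r, the receptor of CSF1, at 3.75 ± 0.47. Mrc1 (the mannose receptor) had 2.75 ± 0.98 and Marco 2.55 ± 2.81 log2 RPKM. Trem2, a lipid-sensing receptor, Cd163, the receptor of haemoglobin-haptoglobin, and Siglec1, a receptor of sialylated surfaces, were lowest at 0.72 ± 0.83, 0.28 ± 0.95 and -0.61 ± 1.75. C1qa exceeded C1qb in 25 of 25 samples, and Cd68 exceeded Csf1r in 25 of 25. Mrc1 and Marco, neighbours in this order, did not differ beyond their spread, with a mean difference of 0.21 ± 2.47 (SD) and Mrc1 the higher in 10 of 25 samples. The same holds of Marco over Trem2 (1.82 ± 3.12), of Trem2 over Cd163 (0.44 ± 0.92) and of Cd163 over Siglec1 (0.89 ± 2.00). It also holds of C1qc over Cd68 (0.62 ± 0.73), with C1qc the higher in 21 of 25 samples. All 10 genes passed the filter on low values.

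The place of Marco in this order differed by sample type. In whole lung it was the fifth of 10, at 4.63 ± 2.11 log2 RPKM (n = 12), between Cd68 and Csf1r, with mean differences of 0.43 ± 1.73 and 0.68 ± 1.71 (SD) from these neighbours, within their spread. In LCM samples it was the eighth, at 0.62 ± 1.84 (n = 13). Its spread over the 25 samples was the widest of the 10 genes and that of Csf1r the narrowest.

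**Figure D1:**
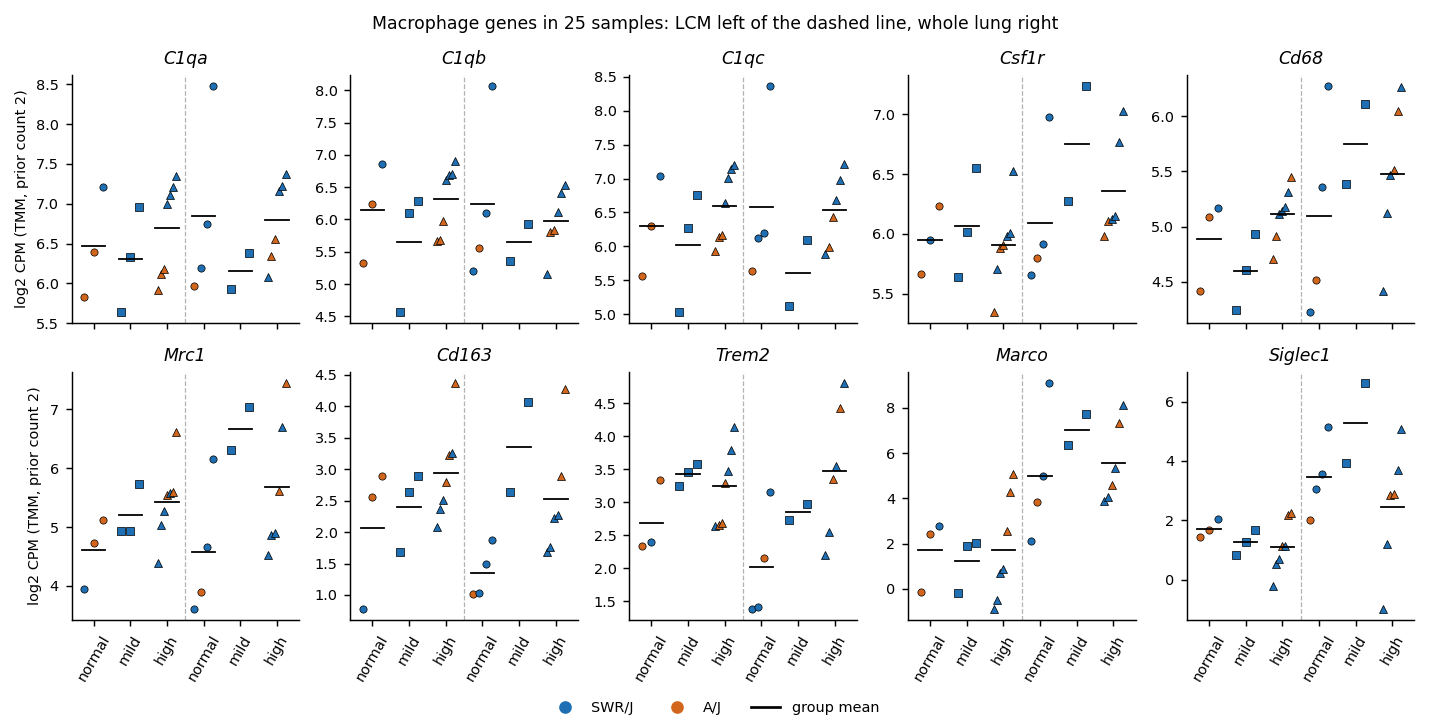
Level of each of the 10 genes in log2 CPM (vertical axes) in the 25 samples, by grade (circles normal, squares mild, triangles high-grade, blue SWR/J, orange A/J) in LCM samples (left of each dashed line) and whole lung samples (right). Bars are group means. Marco spans -0.90 to 9.10, and Csf1r 5.35 to 7.24.

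The 3 C1q genes encode the A, B and C chains of C1q, which starts the classical complement cascade and tags dying cells for uptake. They lie side by side on chromosome 4 within 18675 bp, all on the minus strand (NCBIM37): C1qb at 136436044-136442102, C1qc at 136445719-136448980 and C1qa at 136451832-136454718. Across the 25 samples their log2 CPM varied together, with r = 0.96 between C1qa and C1qc, 0.93 between C1qa and C1qb and 0.93 between C1qb and C1qc. Within the 13 LCM samples r was 0.93 to 0.97 and within the 12 whole lung samples 0.91 to 0.97, and over the 22 samples without the low ones 0.90 to 0.94. These are descriptions over samples that share library size and composition.

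Marco had r of -0.03 with C1qb and 0.08 with C1qc over the 25 samples. Within whole lung these were 0.49 and 0.50, and within LCM -0.50 and -0.41. Because the C1q genes moved together, the 250 bases before the transcription start are shown for C1qb and C1qc, beside those of Marco. They are RefSeq sequences of GRCm38.p6, all read on the minus strand, 5′ to 3′: chr4:136886201-136886450 for C1qb, chr4:136892915-136893164 for C1qc and chr1:120505025-120505274 for Marco. Such a sequence was found for 7 of the 10 genes, and for Csf1r, Siglec1 and C1qa none is shown.
C1qb: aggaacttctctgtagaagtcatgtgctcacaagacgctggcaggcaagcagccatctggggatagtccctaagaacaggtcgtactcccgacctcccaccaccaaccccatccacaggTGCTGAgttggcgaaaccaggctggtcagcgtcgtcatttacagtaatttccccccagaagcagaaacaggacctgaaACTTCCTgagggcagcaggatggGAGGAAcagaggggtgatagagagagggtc
C1qc: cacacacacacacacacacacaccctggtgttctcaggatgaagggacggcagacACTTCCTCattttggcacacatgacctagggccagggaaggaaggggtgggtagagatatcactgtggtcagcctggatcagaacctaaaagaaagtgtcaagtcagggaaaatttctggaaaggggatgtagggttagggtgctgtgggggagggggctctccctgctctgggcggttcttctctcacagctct
Marco: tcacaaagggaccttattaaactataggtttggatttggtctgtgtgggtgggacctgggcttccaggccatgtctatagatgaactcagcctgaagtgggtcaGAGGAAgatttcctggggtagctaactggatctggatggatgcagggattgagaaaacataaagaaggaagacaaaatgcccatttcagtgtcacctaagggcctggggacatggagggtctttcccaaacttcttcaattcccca
Capitals mark matches, on either strand, of GAGGAA, the purine-rich core bound by PU.1 (the macrophage regulator, Sfpi1 here), of the ETS-type AGGAAGT, and of TGCTGA, the core of the site of MAF factors. GAGGAA starts 30 bases before the start of C1qb, 193 before that of C1qc and 146 before that of Marco. AGGAAGT, in the reverse direction, starts 53 bases before the start of C1qb and 195 before that of C1qc, where it overlaps GAGGAA, and does not occur in these bases of Marco. TGCTGA occurs in C1qb only of the 3, 131 bases before the start. Of 32851 mouse promoters cut to the same 250 bases, 23.3% hold GAGGAA, 7.69% AGGAAGT and 16.1% TGCTGA, and a match describes the letters, not a site in use.

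The clearest difference among the 10 genes was between LCM and whole lung samples. Marco, a scavenger receptor that binds bacteria and inhaled particles, was lower in LCM samples by a fitted log2 fold change of -4.52 (SE 0.89), and Siglec1 by -2.58 (SE 0.52). The 3 C1q genes, Cd163 and Trem2 differed between the sample types by 0.22 or less in either direction. In the counts, Marco had 51 to 3742 in whole lung and 2 to 477 in LCM samples.

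Marco was measured at 2.11, 3.82, 4.99 and 9.10 log2 CPM in the 4 normal whole lung samples and at 6.36 and 7.72 in the 2 mild ones, and ran from 3.90 over a median of 4.95 to 8.13 in the 6 high-grade ones. In LCM samples it was -0.13, 2.44 and 2.80 in the 3 normal samples, -0.20, 1.89 and 2.03 in the 3 mild ones and -0.90 to 5.09 (median 0.87) in the 7 high-grade ones. Every LCM sample lay below the whole lung mean of 5.62 ± 2.11 (SD, n = 12), but the ranges overlapped. Normal whole lung replicate 6 was the lowest of its type, and the 2 highest LCM values were of A/J samples.

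Siglec1 had 2.02, 3.05, 3.57 and 5.14 log2 CPM in the normal and 3.92 and 6.63 in the mild whole lung samples. In the high-grade whole lung samples it had -0.99 to 5.08 (median 2.88). In LCM samples it was 1.45, 1.67 and 2.05 in normal, 0.84, 1.28 and 1.68 in mild and -0.22 to 2.25 (median 1.14) in high-grade. All 13 LCM samples lay under the whole lung mean of 3.26 ± 1.98 (n = 12), and the groups overlapped.

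By edgeR's quasi-likelihood test with Benjamini-Hochberg adjustment, Marco (adjusted p = 0.00344) and Siglec1 (adjusted p = 0.00422) passed the threshold of 0.05. Of all 15627 genes tested, 14.6% were called in either direction, 8.93% lower, and 883 genes were called higher. Of the 10 genes 2 were called, both lower in LCM. Neither call was lost in any of 11 alternatives or when any 1 of the 25 samples was left out, including the fit without the 3 whole lung samples low in alveolar markers (Marco -3.68, Siglec1 -2.13). Within SWR/J the difference of means was -4.91 for Marco and -2.48 for Siglec1 (8 LCM and 9 whole lung samples), and within A/J -2.39 and -0.85 (5 and 3 samples). Cd68 (-0.55, SE 0.22, adjusted p = 0.0935), Mrc1 (-0.71, SE 0.33, adjusted p = 0.146) and Csf1r (-0.36, SE 0.18, adjusted p = 0.175) had negative values that did not pass. C1qa had -0.03 (SE 0.22), C1qb 0.22 (SE 0.26), C1qc 0.12 (SE 0.26), Cd163 0.04 (SE 0.28) and Trem2 0.05 (SE 0.31). The median over the 10 genes was -0.19, and that over all genes tested -0.03.

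**Figure D2:**
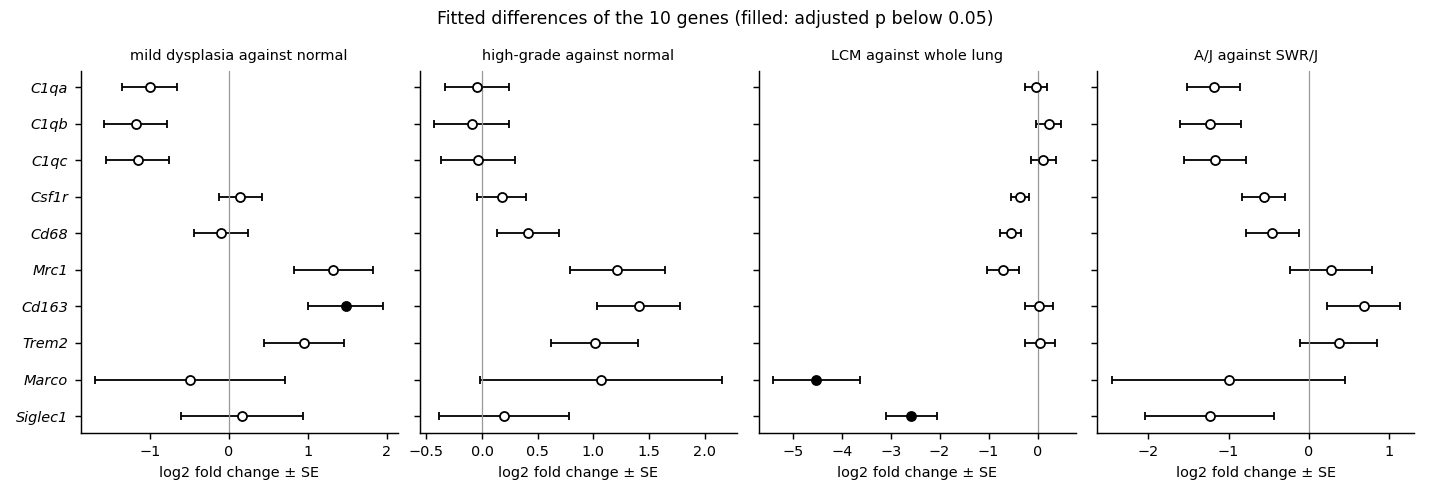
Fitted log2 fold change of each gene (horizontal axes) with its standard error in 4 comparisons, each panel titled first group against second. Filled points have an adjusted p below 0.05: Cd163 at 1.48 in mild dysplasia, and Marco at -4.52 and Siglec1 at -2.58 in LCM.

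Of a list of 18 other genes known from alveolar macrophages, 17 were tested, 9 fell in LCM samples and none rose, with a median log2 fold change of -1.78 and positive values in 5. The summed level of the list, in which abundant genes count most, was 10.7 in whole lung and 10.6 in LCM samples. Fabp4, a fatty acid carrier that fat cells also make, was most of the sum in some samples. In LCM moderate to severe replicates 9 and 4, Fabp4 was 12.6 and 12.1 log2 CPM and the sum 12.9 and 12.4. The sums therefore do not speak for the other genes of the list. Olr1, a receptor of oxidised lipoprotein, fell by 3.37 on the log2 scale (SE 0.73, adjusted p = 0.00589 by edgeR) and the eosinophil-type ribonuclease Ear1 fell by 3.36 (SE 0.87, adjusted p = 0.0142). Chi3l3, a chitinase-like secreted protein, fell by 3.16 and the proton pump subunit Atp6v0d2 fell by 2.18. Of 19 tissue macrophage genes, 2 rose (Tmem176a, 1.11, and Tmem176b, 0.95) and 2 fell (Lyve1, -1.87, and Cd72, -0.93), with a median of -0.11.

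Receptors and regulators of the same pathway as Csf1r were also counted. Of 10 genes of the CSF1 and CSF2 pathway, 4 fell in LCM samples and none rose: Sfpi1 (PU.1) at -1.59, the CSF2 receptor chains Csf2ra at -1.16 and Csf2rb at -1.08, and the transcription factor Irf8 at -1.12. Of 9 tested genes of signalling through Trem2 and its adaptor, 1 fell (Inpp5d, a lipid phosphatase, -1.11). Of 15 scavenger and phagocytic receptors, 4 fell and none rose: Fcgr4 (-1.54), Clec7a (-1.49), Scarb1 (-1.30) and Mertk (-1.11). Of 13 complement genes 1 fell (Itgb2, -1.01). The shares of the Trem2 pathway and complement lists lie close to the 8.93% of all genes called lower. In the same comparison 2 of 12 monocyte genes rose, Plac8 by 2.22 and Cd14 by 1.89, beside 883 of all 15627 genes called higher.

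Markers of other cells moved with these genes. In LCM samples 9 of 10 endothelial genes fell (Cldn5, -2.70), as did 5 of 12 alveolar epithelial genes (Sftpc, -3.44), 4 of 12 T and B cell genes (Pax5, -3.07), 3 of 10 pan-leukocyte genes (Laptm5, -1.72) and 3 of 10 dendritic cell genes (Clec9a, -1.63), and 3 of 13 airway epithelial genes rose (Cyp2f2, 1.84). Of 8 tested neutrophil genes, 1 rose and 1 fell. The summed alveolar epithelial level was 9.83 to 13.5 in LCM and 7.92 to 15.1 in whole lung samples, and the endothelial one 7.49 to 10.8 and 7.82 to 11.2. Their part in the fall of Marco and Siglec1 was not tested. Without the 3 whole lung samples low in alveolar markers, 9 of 17 alveolar macrophage and 4 of 10 CSF1 and CSF2 pathway genes fell, as did 1 of 12 T and B cell genes, and 1 of 13 complement genes rose.

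Marco minus the mean of the 3 C1q genes, a difference of log2 CPM, sets a gene known from alveolar macrophages against genes known from tissue macrophages within each sample. Over the 12 whole lung samples Marco had a median r of -0.07 with the 18 other alveolar macrophage genes. Without the 3 samples low in alveolar markers this median was 0.32, so the difference is not read as a ratio of these populations. The difference was -0.75 ± 1.85 (SD, n = 12) in whole lung and -4.75 ± 2.22 (n = 13) in LCM samples, as a description with no test. In whole lung samples it was -4.23, -1.90, -0.85 and 0.80 in normal, 1.24 ± 0.48 in the 2 mild and -0.88 ± 1.64 in the 6 high-grade samples. In LCM samples it was -4.60 ± 1.68 in the 3 normal, -4.76 ± 1.69 in the 3 mild and -4.81 ± 2.82 in the 7 high-grade samples. The grade means thus lay close together in LCM samples, and in whole lung the mean of the mild pair was above those of normal and high-grade, which have wide spreads. Leaving out the 3 whole lung samples low in alveolar markers gave -0.74 ± 1.56 (n = 9).

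**Figure D3:**
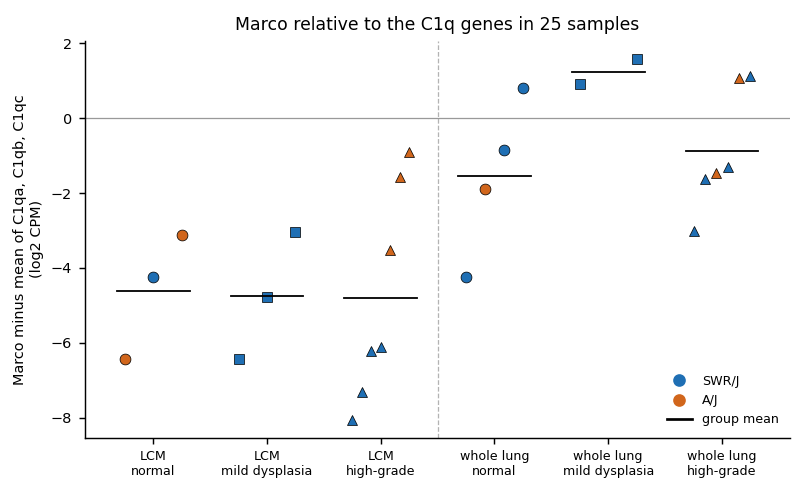
Marco minus the mean of C1qa, C1qb and C1qc (vertical axis, difference in log2 CPM) by sample type and grade (horizontal axis), 1 point a sample, bars for group means. LCM samples run from -8.05 to -0.90 and whole lung samples from -4.23 to 1.58.

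Among the 7 high-grade LCM samples Marco split by strain. The 3 A/J samples had 2.57, 4.26 and 5.09 log2 CPM (46, 310 and 477 counts), and the 4 SWR/J samples had -0.90, -0.49, 0.69 and 0.87 (2, 3, 13 and 4 counts). These values did not overlap. The A/J samples also had a higher summed alveolar epithelial level (12.5, 13.2 and 13.4) than the SWR/J ones (9.83, 10.3, 10.5 and 12.1), and a higher endothelial one (9.16 to 9.85 against 7.49 to 8.13). Median TIN was 58.5, 63.6 and 68.8 in the A/J and 21.7, 39.1, 44.1 and 48.4 in the SWR/J samples, and the NTCU doses were 14 or 20 umol in A/J and 25 to 50 umol in SWR/J, so RNA quality and dose cannot be told apart from strain here. The part of alveolar tissue was not tested. In the 6 high-grade whole lung samples the strains overlapped, at 4.57 and 7.33 in A/J and 3.90 to 8.13 in SWR/J. Fitted over all samples, the strain difference of Marco was negative, with A/J the lower (-1.0, SE 1.45, adjusted p = 0.748 by edgeR), and 0.69 without the 3 samples low in alveolar markers, and the difference in its high-grade effect between the strains was 3.22 (SE 1.76, adjusted p = 0.970), so neither passed. High-grade minus normal, the plain means of Marco differed by 2.72 within A/J (5 and 3 samples) and by -2.05 within SWR/J (8 and 4 samples), and the interaction test above is the test of that contrast. These means mix sample types, and in SWR/J 4 of the 8 high-grade but 1 of the 4 normal samples were LCM. Within SWR/J the difference was -0.04 in whole lung (4 and 3 samples) and -2.75 in LCM (4 and 1). Within A/J it was 2.13 in whole lung (2 and 1) and 2.82 in LCM (3 and 2).

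Within whole lung samples the label of Marco as an alveolar macrophage gene was checked against the other genes of that list. Over the 12 samples its r with the 18 genes ranged from -0.32 to 0.38, with a median of -0.07. With Siglec1 r was 0.69 and with Csf1r 0.81. The 3 highest Marco levels were in normal replicate 8 (9.10), severe replicate 4 (8.13) and mild replicate 3 (7.72), and these also had the 3 highest Siglec1 levels (5.14, 5.08 and 6.63). The first 2 of these are among the samples low in alveolar markers. Over the 9 whole lung samples without the low ones, r with the 18 alveolar genes ran from -0.35 to 0.54 with a median of 0.32, and 4 of 18 were over 0.5 against 0 of 18 before. In the same 9 samples r was 0.76 with Siglec1, 0.63 with Csf1r, 0.82 with Mrc1 and 0.85 with Cd163, which had 0.26 over all 12. How far Marco followed the other alveolar macrophage genes thus depended on those 3 samples.

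Some genes of the alveolar list were highest in another section, and others elsewhere again. Chi3l3 was highest in mild replicate 4 at 10.4 log2 CPM, where Marco was 6.36, and was 5.59 in normal replicate 8 and 4.81 in severe replicate 4. Siglec5, the annotation's symbol for Siglec-F, was 4.21 in mild replicate 4, 0.92 in normal replicate 8 and -0.96 in severe replicate 4. Atp6v0d2 was 6.52 in mild replicate 4 and 3.67 in normal replicate 8. Among the whole lung samples the summed level of the 18 genes was instead highest in normal replicate 6 (12.1) and moderate to severe replicate 14 (11.9), against 11.2 in mild replicate 4. Fabp4 of the same list was at 11.6 in normal replicate 6 and 6.28 in mild replicate 4.

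Other genes were high in the sections rich in Marco. Cd209b, a lectin of marginal zone and lymph node macrophages, was singled out after its values were seen. It had 9.53, 7.42 and 7.24 log2 CPM in normal replicate 8, severe replicate 4 and mild replicate 3, and -0.65 to 2.62 in the other 9 whole lung samples. Cd5l, a secreted protein of macrophages known from spleen and liver, was 6.45, 5.39 and 4.13 there, and -2.22 to 3.36 in the other 9. The B cell gene Cd79a had 8.78, 8.76 and 7.49 in these samples. The CIS sample of A/J, the fourth in Marco (7.33), differed from them, with Cd209b at -0.65, Siglec1 at 2.89 and Cd79a at 1.85. Over the 12 samples r with Marco was 0.66 for Cd209b and 0.54 for Cd5l, and over the 9 samples 0.35 and 0.01.

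**Figure D4:**
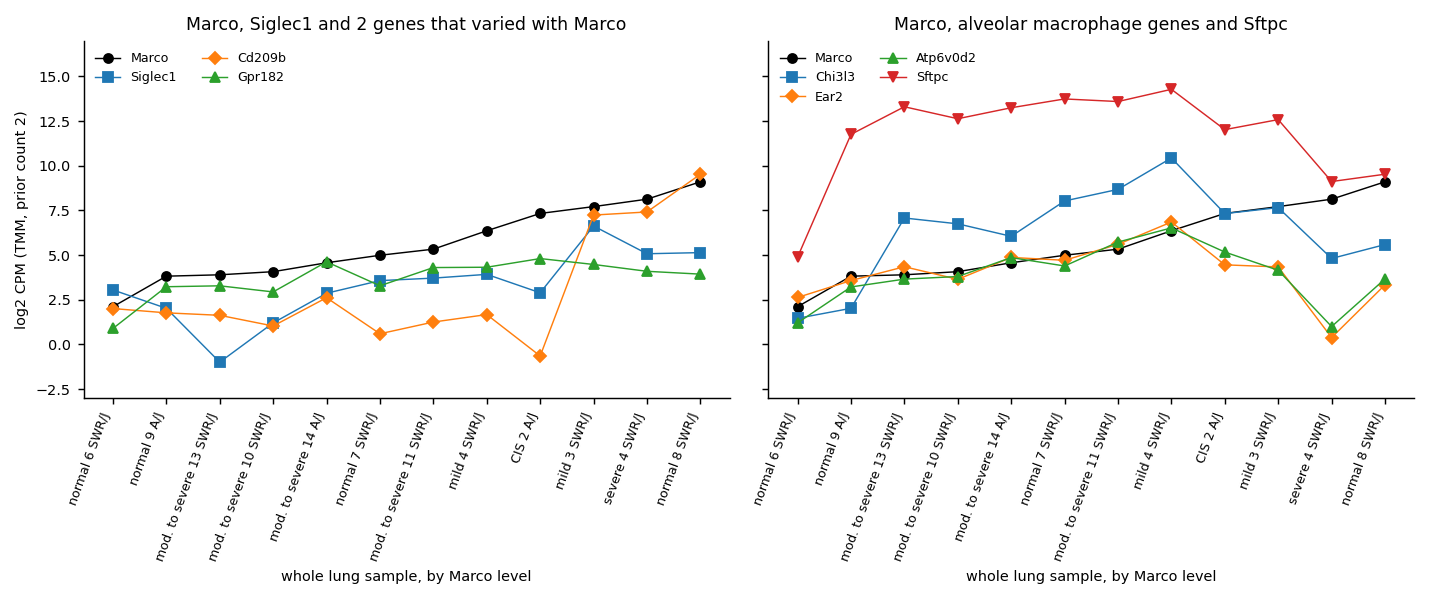
Levels in log2 CPM (vertical axes) of Marco and other genes in the 12 whole lung samples, ordered by Marco (horizontal axis). Left, Siglec1 and Cd209b are highest in the 3 samples with most Marco. On the right, Chi3l3, Ear2 and Atp6v0d2 peak in mild replicate 4 (Chi3l3 at 10.4), and Sftpc ranges from 4.89 to 14.3.

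Leaving out the 10 genes themselves, the 5 genes most like Marco by Pearson's r over the 25 samples, among 14201 genes averaging 1 log2 CPM or more, were Samhd1 (r = 0.86), Gpr182 (0.85), Plek (0.85), 1300014I06Rik (0.85) and Sdc3 (0.84). Within whole lung their r was 0.66 to 0.89 and within LCM 0.27 to 0.75. The 5 most like C1qb were Ninj1 (0.88), Emp3 (0.82), Trex1 (0.79), Ntpcr (0.78) and Psme2 (0.78), with r of 0.70 to 0.90 within whole lung and 0.78 to 0.87 within LCM. Marco and C1qb themselves had r = -0.03, made of 0.49 within whole lung and -0.50 within LCM.

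In mild dysplasia Cd163 was higher than in normal samples by a fitted 1.48 (SE 0.47) and passed, in a call that was lost without the 3 samples low in alveolar markers. Mrc1 had 1.33 (SE 0.50), which did not pass, while the C1q genes had negative fitted values (C1qb -1.18, C1qc -1.15). Cd163 and Mrc1 are receptors often used to mark macrophages of an alternatively activated state.

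Cd163 had 0.78, 2.55 and 2.89 log2 CPM in the normal and 1.68, 2.64 and 2.89 in the mild LCM samples. In whole lung it had 1.01, 1.03, 1.49 and 1.87 in normal and 2.64 and 4.06 in mild samples. Both mild whole lung samples were above all 4 normal ones, and the LCM groups overlapped. All 5 mild samples lay above the normal mean of 1.66 ± 0.81 (SD, n = 7). The counts of Cd163 were low, from 6 to 123 in normal and from 17 to 294 in mild samples.

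C1qb had 5.33, 6.24 and 6.87 in the normal and 4.57, 6.10 and 6.29 in the mild LCM samples, and 5.21, 5.57, 6.09 and 8.07 in the normal and 5.36 and 5.93 in the mild whole lung samples. The groups overlapped, and the highest value was that of normal replicate 8. The difference of plain means was -0.49 within LCM and -0.59 within whole lung, smaller than the fitted -1.18 (SE 0.40), in which strain, sample type and TIN are covariates. Within SWR/J, the strain of all mild samples, it was -0.91 (5 and 4 samples). Without the 3 whole lung samples low in alveolar markers the fitted value was -0.53 (adjusted p = 0.443 by edgeR).

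By edgeR, 1 of the 10 genes passed in mild against normal, Cd163 (adjusted p = 0.0455), beside 12.5% of all genes tested, 5.22% called higher and 7.24% called lower. Mrc1 (adjusted p = 0.0740), C1qa (0.0573), C1qb (0.0542) and C1qc (0.0585) had an unadjusted p under 0.05 and did not pass. Of all genes tested, 32.6% had an unadjusted p under 0.05. The call of Cd163 was lost in 7 of 13 alternatives, including the fit without the 3 whole lung samples low in alveolar markers (1.54, adjusted p = 0.159, with 0 genes called in all against 1947 of 15627), and when any of 10 single samples was left out. The fitted value was positive in all of these, from 0.98 to 2.08 over the alternatives. By DESeq2, Cd163 and the 3 C1q genes passed. Over the 13 alternatives, DESeq2 included, 0 to 3653 of all genes were called.

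In the same fit, where 5.22% of all genes rose and 7.24% fell, some genes of the other macrophage lists passed. None of these calls, like those of any gene, was left without the 3 samples low in alveolar markers. Of 17 alveolar macrophage genes 3 rose (Olr1, 3.85, Siglec5, 3.61, and 1600029D21Rik, 2.01) and none fell. Of 19 tissue macrophage genes 3 rose, Lyve1 (1.99), Tmem176a (1.32) and the scavenger receptor Stab1 (1.24), and none fell. Of 13 complement genes 3 rose, among them the receptor C5ar1 (1.76) and the protein C4b (1.56). Of 15 scavenger receptors 2 rose, Colec12 (1.29) and Stab1, and of 10 CSF1 and CSF2 pathway genes none passed, with 0 at an unadjusted p under 0.05. Of the 9 Trem2 pathway genes 1 fell, Hcst (-3.17), an adaptor that T and NK cells also carry.

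In the same comparison 7 of 12 T and B cell genes fell (Cd8a, -8.40), with a median of -4.09, as did 4 of 10 pan-leukocyte genes (Coro1a, -2.91), 2 of 12 monocyte genes (Spn, -2.77) and 2 of 10 dendritic cell genes (Ccr7, -3.40, and Ccl22, -2.90). Of 12 alveolar epithelial genes 2 rose (Sftpd, 2.53, and Pdpn, 1.57). The summed T and B cell level was 8.04 to 12.2 in the 7 normal and 5.63 to 9.58 in the 5 mild samples, and the alveolar epithelial one 7.92 to 14.3 and 11.4 to 15.1. Their part in the values of Cd163 and the C1q genes was not tested.

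In high-grade samples Cd163, Mrc1, Marco and Trem2 had the largest positive fitted values against normal, and none of the 10 genes passed. Cd163 was 2.75 ± 0.85 log2 CPM in high-grade (SD, n = 13) and 1.66 ± 0.81 in normal samples (n = 7). All 13 high-grade values exceeded that normal mean. Its range was 1.69 to 4.37 in high-grade and 0.78 to 2.89 in normal samples, so the groups overlapped. The highest were 2 A/J samples, the SCC tumor (4.37) and the CIS (4.28). Mrc1 was also highest in the CIS sample (7.45), followed by moderate to severe replicate 11 (6.70) and the SCC tumor (6.62).

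The fitted difference was 1.41 for Cd163 (SE 0.37, adjusted p = 0.309), 1.22 for Mrc1 (SE 0.43, adjusted p = 0.439) and 1.01 for Trem2 (SE 0.39, adjusted p = 0.477). Marco had 1.07 (SE 1.09), and the C1q genes -0.09 to -0.04 (SE 0.29 to 0.34). Without the 3 samples low in alveolar markers these were 1.49 for Cd163, 1.38 for Mrc1, 0.75 for Trem2, 0.49 for Marco and 0.18 to 0.21 for the C1q genes, with none called. By edgeR 0 of the 10 genes passed, 3 had an unadjusted p under 0.05, and 0.0192% of all genes tested were called (3 genes). DESeq2 called 1 of the 10, Cd163 (1.40, adjusted p = 0.0347). Over the 13 alternatives, DESeq2 included, 0 to 91 of all genes were called. Within LCM the difference of means of Cd163 was 0.87 (7 and 3 samples), within whole lung 1.17 (6 and 4), within SWR/J 0.98 (8 and 4) and within A/J 1.36 (5 and 3). For Marco the plain means were 3.50 ± 2.82 in high-grade and 3.59 ± 2.90 in normal samples (SD). They differed by 0.03 within LCM and 0.55 within whole lung, beside the fitted 1.07. The median fitted value over the 10 genes was 0.30, and that over all genes tested -0.01.

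In the gene lists around them no gene passed in high-grade against normal by edgeR. At an unadjusted p under 0.05 were 6 of 19 tissue macrophage genes, 5 of 15 scavenger receptors, 3 of 10 CSF1 and CSF2 pathway genes, 3 of 13 complement genes, 3 of 12 monocyte genes, 3 of 12 alveolar epithelial genes, 1 of 17 alveolar macrophage genes and 5 of 8 neutrophil genes, beside 9.14% of all genes. None of the 10 pan-leukocyte or 12 T and B cell genes was.

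In high-grade against mild samples, the C1q genes had fitted values of 0.96 (C1qa, SE 0.36), 1.08 (C1qb, SE 0.42) and 1.12 (C1qc, SE 0.42) that did not pass, with adjusted p of 0.129 to 0.141 by edgeR. C1qc lay above the mild mean of 5.85 ± 0.75 (SD, n = 5) in 13 of 13 high-grade samples. None of the 10 genes passed by edgeR, with 3 at an unadjusted p under 0.05, and 0 passed by DESeq2, beside 0.326% of all genes called by edgeR and 22.5% at an unadjusted p under 0.05. Without the 3 samples low in alveolar markers the values were 0.63, 0.70 and 0.72. Pan-leukocyte genes had positive values in 10 of 10 (median 1.60) and T and B cell genes in 12 of 12 (median 2.99), with none called, and their part in the C1q values was not tested. The comparisons of mild and of high-grade with normal share the 7 normal samples, and that of high-grade with mild shares the 5 mild samples with the first.

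Between strains, the C1q genes were lower in A/J by fitted values that did not pass the test. C1qb ran from 5.33 over a median of 5.74 to 6.24 log2 CPM in the 8 A/J samples and from 4.57 over 6.29 to 8.07 in the 17 SWR/J samples, so the groups overlapped. In high-grade whole lung samples they overlapped too, at 5.81 and 5.83 in A/J and 5.16 to 6.54 in SWR/J. In high-grade LCM samples they did not, at 5.66, 5.68 and 5.98 in A/J and 6.61 to 6.90 in SWR/J, where median TIN was 58.5 to 68.8 and 21.7 to 48.4.

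The fitted difference of A/J from SWR/J was -1.19 for C1qa (SE 0.33, adjusted p = 0.0887), -1.23 for C1qb (SE 0.38, adjusted p = 0.112), -1.17 for C1qc (SE 0.38, adjusted p = 0.130) and -0.56 for Csf1r (SE 0.27, adjusted p = 0.278). Differences of plain means were smaller for the C1q genes. Within LCM (5 and 8 samples) they were -0.76 for C1qa, -0.56 for C1qb and -0.62 for C1qc. Within whole lung (3 and 9 samples) they were -0.55, -0.36 and -0.50. By edgeR none of the 10 genes passed, 4 had an unadjusted p under 0.05 and 0.992% of all genes were called. DESeq2 called the 3 C1q genes, and edgeR called 4 of the 10 genes without TIN as a covariate, the C1q genes among them. Over the 12 alternatives, these included, 14 to 2492 of all genes were called, against 155 by edgeR as reported. Without the 3 whole lung samples low in alveolar markers the fitted values were -0.71, -0.70 and -0.61 for C1qa, C1qb and C1qc. TIN was 53.7 to 69.6 in A/J and 21.7 to 75.1 in SWR/J samples. The fitted values have TIN as a covariate, but RNA quality cannot be fully told apart from strain. Markers of other cells also differed. Of 10 pan-leukocyte genes 9 had an unadjusted p under 0.05, beside 17.5% of all genes, with a median of -1.64, and 1 fell (Arhgdib, -2.20). The T and B cell list had a median of -2.30 with none called, and 1 of 10 dendritic cell genes fell (Ccl22, -1.78). Alveolar epithelial genes had positive values in 12 of 12 (median 2.09), of which 1 rose (Pdpn, 2.23), and endothelial genes in 10 of 10 with none called. Their part in the C1q values was not tested.

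Whether the high-grade effect differed between sample types or strains was tested with an interaction term. None of the 10 genes passed in either test by edgeR or DESeq2, and by edgeR none had an unadjusted p under 0.05. Of all genes 0% were called for the sample types and 0% for the strains. For C1qb the difference in effect was 0.09 (SE 0.57) between LCM and whole lung and 0.45 (SE 0.63) between A/J and SWR/J. For Cd163 it was 0.45 (SE 0.63) and 0.23 (SE 0.73), and for Trem2 -0.98 (SE 0.62) and -0.70 (SE 0.75).

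Among the other members, Cd163 and Mrc1 varied together (r = 0.62 over 25 samples, 0.74 within LCM and 0.65 within whole lung), as did Cd68 and Mrc1 (0.72, 0.18 and 0.88). Marco and Siglec1 had r = 0.79, with 0.81 within LCM and 0.69 within whole lung. Csf1r is overlapped on the opposite strand by Hmgxb3, and Mrc1 holds Mir511, and the counting is not stated to use strand.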

How the data were processed

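RNA of whole lung sections and LCM tissue was sequenced by the authors as single-end 50-nucleotide TruSeq reads. Per the labels, reads were processed with Trimmomatic, STAR, RSEM and edgeR on mm9, and the deposited values are RSEM expected counts per Ensembl gene, not normalized (88.8% are whole). All 37310 identifiers were found in GENCODE M1 on the same assembly (NCBIM37). Groups, strain and TIN came from the labels.

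The expected counts were rounded, and genes with an interquartile range of log2 CPM (prior count 2) over 0 and a sum over 1 were kept. edgeR 4.0.16 in R 4.3.3 (TMM, robust quasi-likelihood test) was run with grade, median TIN, strain and sample type, with Benjamini-Hochberg adjustment over all genes and a threshold of 0.05. Interactions were added 1 at a time. The standard error is the absolute log2 fold change divided by the square root of F. The model was tested on simulated data. Summed list levels used a prior count of 0.25. Errors of levels are SDs between samples.

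The rule for named genes was all 10 members, up to 4 called genes with the largest change per list and comparison (or the 2 of highest mean), and the 5 genes most like Marco and C1qb. Members, lists and tests were chosen with earlier results of these data known. Alternatives were DESeq2 1.42.0, other scalings, filters, covariates, subsets and leaving out each sample. The fit without the 3 whole lung samples low in alveolar markers was added after the data were seen. The 15 samples that failed quality control entered no test. Cd209b, Cd5l and, beside them, Lyve1 were picked after their values were seen. Some genes of the lists are not reported here.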

Additional observations from a re-analysis of the deposited data

Results flagged for a closer look

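Of 66 combinations of a gene (or Marco minus C1q) and a group of samples, 0 had a sample standing apart by Dixon's criterion, which chance alone would meet in about 1 of 20. None of the 10 genes had a high-grade effect that differed between sample types or strains by the interaction test.

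The 15 samples that failed quality control entered no comparison, and 8 of their values with at least 10 counts lay above the highest of the 7 normal samples that passed. They are log2 CPM without TMM scaling and were not tested. Trem2 was 4.43 in moderate to severe replicate 1, 4.26 in severe replicate 1, 3.99 in mild replicate 7 and 3.35 in normal replicate 2, all SWR/J LCM samples, against 3.33 in the highest normal sample that passed. Cd163 was 3.22 in moderate to severe replicate 1 and 3.26 in normal replicate 2, against 2.89. C1qa was 8.57 in moderate to severe replicate 3, against 8.48. Csf1r was 7.08 in the A/J whole lung SCC tumor replicate 2, against 6.97.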

How the results depend on the processing

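The number of the 10 genes called in mild dysplasia against normal, 1 in the fit as reported, was 4 by DESeq2, 2 without TMM, and 0 without the filter, without strain and sample type, by the histology of the description, in SWR/J only, in LCM only, in whole lung only and without the 3 whole lung samples low in alveolar markers. Leaving out 1 sample gave 0 to 4. Cd163 lost its call without normal replicate 3, 6 or 8, mild replicate 1, 3, 4 or 5, moderate to severe replicate 4 or 10 or CIS replicate 2, with adjusted p of 0.0508 to 0.114 by edgeR. Over all genes the count of 1947 became 0 to 3653 over the alternatives.

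In high-grade against normal, 0 of the 10 genes became 1 by DESeq2 and was 0 to 0 on leaving out 1 sample. In A/J against SWR/J, 0 became 3 by DESeq2 and 4 without TIN, and 0 to 1 on leaving out 1 sample (1 without mild replicate 1). Over all genes the count of 155 for the strains became 14 to 2492 over the alternatives. The value of Csf1r in A/J against SWR/J turned to 0.054 in LCM only. High-grade against mild and both interactions stayed at 0 in each alternative and each sample left out.

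In LCM against whole lung, 2 genes were called in all 11 alternatives and 2 to 3 on leaving out 1 sample (Cd68 in addition without moderate to severe replicate 10). Marco was -5.77 to -3.68 and Siglec1 -3.17 to -2.13 over the alternatives. On leaving out 1 sample, Marco minus C1q was -5.07 to -4.48 in LCM and -0.96 to -0.43 in whole lung. With the other 9 genes in place of the C1q genes it was -3.08 in LCM (normal -2.84) and changed sign in whole lung, to 0.65 (normal 0.31, high-grade 0.53), and the other alternatives gave -4.93 to -4.75 in LCM and -0.76 to -0.75 in whole lung. The causes were not tested. No paired analysis was possible because the groups share no replicate numbers that the labels tie to an animal or day.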
